A study of Mus musculus with 8 samples.

Results

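The cytosolic ribosomal protein genes of mouse granulocyte progenitors were followed across the 4 groups of this array study. Members were taken by name. They were the genes with an mRNA accession whose symbol starts with Rpl or Rps and a digit, together with Rpsa, Rplp0, Rplp1 and Rplp2, without the Rps6k kinases and without pseudogenes. This gave 85 genes of 20284 named on the array, measured by 174 of its 55681 probes. Of the 85, 76 encode the standard proteins of the ribosome (46 of the large subunit and 30 of the small one) and are called the core here. The other 9 carry a ribosomal name but are paralogues (Rpl3l, Rpl7l1, Rpl10l, Rpl22l1, Rpl36al, Rpl39l and Rps27l), a mouse retrogene (Rps23rg1) or a protein that binds a ribosomal protein (Rps19bp1). After the filter on dim probes 84 genes could be tested. Rpl10l, a testis paralogue of Rpl10, was not above background on any array.

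RNA came from bone marrow granulocyte progenitors sorted as Flt3+ or Flt3- cells from mice labelled Irf8KO and from wild-type (WT) mice, with 2 independent experiments per group. The 4 groups were Irf8KO Flt3+, WT Flt3+, Irf8KO Flt3- and WT Flt3-, each on 2 arrays. The strain, age and number of mice behind an array, and the Irf8 allele, were not given in the sources used here. Irf8 encodes a transcription factor that directs progenitors to the monocyte and dendritic cell lines, and Flt3 is the receptor of Flt3 ligand. All were primary cells, and the labels name no agent. Total RNA was labelled with a low-input kit and hybridised to one-colour Agilent arrays.

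Each cytosolic ribosome carries one copy of nearly every core protein on its RNA scaffold, so the core genes are transcribed at high and matched levels in growing cells. Their mRNAs start with a C and a run of pyrimidines, the 5′ terminal oligopyrimidine (TOP) tract, through which mTORC1 and Larp1 set their translation. In blood formation the family is known for Diamond-Blackfan anaemia, a failure of red cell production in people who carry one defective copy of a ribosomal protein gene.

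The start regions of a few core members and a few members outside the core are shown. Whether they bear on the values was not tested. RefSeq windows (GRCm38.p6) could be matched to 65 of the 85 genes, and the first window listed for a gene was used. Each line runs from 60 bases before the annotated start to 20 bases from it, 5′ to 3′ on the gene's strand, and capitals mark a TOP-like tract or the letters CCGGAA on either strand.
Rps6, core, chr4:86857348-86857427, minus strand: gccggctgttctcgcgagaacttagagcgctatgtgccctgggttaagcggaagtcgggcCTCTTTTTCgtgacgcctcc
Rps10, core, chr17:27635225-27635304, minus strand: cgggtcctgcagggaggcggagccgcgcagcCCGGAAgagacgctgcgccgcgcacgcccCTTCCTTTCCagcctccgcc
Rps24, core, chr14:24490618-24490697, plus strand: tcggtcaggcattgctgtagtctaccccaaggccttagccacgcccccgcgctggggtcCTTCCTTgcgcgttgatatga
Rps2, core, chr17:24720003-24720082, plus strand: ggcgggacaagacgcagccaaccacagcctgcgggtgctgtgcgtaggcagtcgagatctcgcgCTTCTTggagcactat
Rps27, core, chr3:90213629-90213708, minus strand: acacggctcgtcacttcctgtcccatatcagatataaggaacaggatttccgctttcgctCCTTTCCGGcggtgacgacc
Rps27l, paralogue, chr9:66946026-66946105, plus strand: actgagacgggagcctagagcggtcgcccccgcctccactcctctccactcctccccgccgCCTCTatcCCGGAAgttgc
Rpl36al, paralogue, chr12:69184048-69184127, minus strand: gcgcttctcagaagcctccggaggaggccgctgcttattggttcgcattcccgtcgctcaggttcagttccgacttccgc
Rpl7l1, paralogue, chr17:46782637-46782716, minus strand: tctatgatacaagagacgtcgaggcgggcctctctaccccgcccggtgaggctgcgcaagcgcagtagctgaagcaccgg

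A TOP-like tract was counted as a C followed by at least 4 pyrimidines, with the C at most 5 bases from the annotated start on the gene's strand. It was present in 25 of the 56 core genes with a window (44.6%), against 18.5% of all 27025 genes with one. Among the 9 members outside the core 3 had it, Rps27l and Rpl22l1 among them. The capitals of a tract begin at the C nearest the annotated start, even where pyrimidines come before it. In Rps6 and Rps10 that C is the annotated start, with further C letters just before it. Rpl36al and Rpl7l1 have no such tract near their start. The core genes printed above all have a tract, but Rplp0, Rpl22 and Rpl36a, core genes not printed, have none. CCGGAA, on either strand of the 300-base window, was present in 29 core windows (51.8%), in 3 of the 9 others (33.3%) and in 15.2% of all windows. It was not particular to the core, as 39 of 69 windows of mitochondrial ribosomal protein genes had it (56.5%). In Rps27 this motif overlaps the end of the tract. The E-box CACGTG was present in 8.93% of core windows and 7.24% of all windows, and TATAAA on either strand in 8.93% and 14.2%. Such matches describe the letters only.

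Levels are given as log2 of the processed signal minus the array's 75th percentile, so a level of 8 is 8 doublings above that percentile. They compare arrays for one probe, and not one gene with another. All 8 arrays sat on 1 slide and were scanned together, with Irf8KO arrays in one row and WT arrays in the other, and Flt3+ and Flt3- arrays in different columns, so slide position and group cannot be told apart. Between 54.9% and 60.1% of spots were well above background on an array, the 75th percentile lay between 321 and 635 signal units, and the 2 arrays of a group correlated at 0.996 to 0.998 across probes. No spot was saturated. The Irf8 probe was brighter on the arrays labelled Irf8KO, with levels of 6.67 and 6.67 in Irf8KO Flt3+ against 5.80 and 5.87 in WT Flt3+ progenitors. It read 5.64 and 5.53 in Irf8KO Flt3- against 4.85 and 4.88 in WT Flt3- progenitors. Where this probe lies relative to the deletion is not given, so it checks nothing about the deletion. Flt3 itself was 23.2-fold higher in Flt3+ than in Flt3- cells of WT mice and 12.1-fold higher in those labelled Irf8KO. All 9 granulocyte progenitor markers were above background in each group.

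The core genes were among the brightest of the array and moved as a block. The median core level was 8.67 and 8.70 on the Irf8KO Flt3+ arrays, against 8.52 and 8.40 on the WT Flt3+ arrays. It was 8.76 and 8.71 on the Irf8KO Flt3- arrays, against 8.64 and 8.56 on the WT Flt3- arrays. The group means were 8.69 ± 0.02 in Irf8KO Flt3+, 8.46 ± 0.09 in WT Flt3+, 8.74 ± 0.03 in Irf8KO Flt3- and 8.60 ± 0.06 in WT Flt3- progenitors (SD, n = 2 each). In both populations the arrays labelled Irf8KO lay above the WT arrays without overlap, and within each genotype Flt3- lay above Flt3+. All member probes together held 12.32% and 12.30% of the summed signal in Irf8KO Flt3+, 12.06% and 11.52% in WT Flt3+, 12.22% and 12.04% in Irf8KO Flt3-, and 11.32% and 11.08% in WT Flt3- progenitors.

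**Figure D1:**
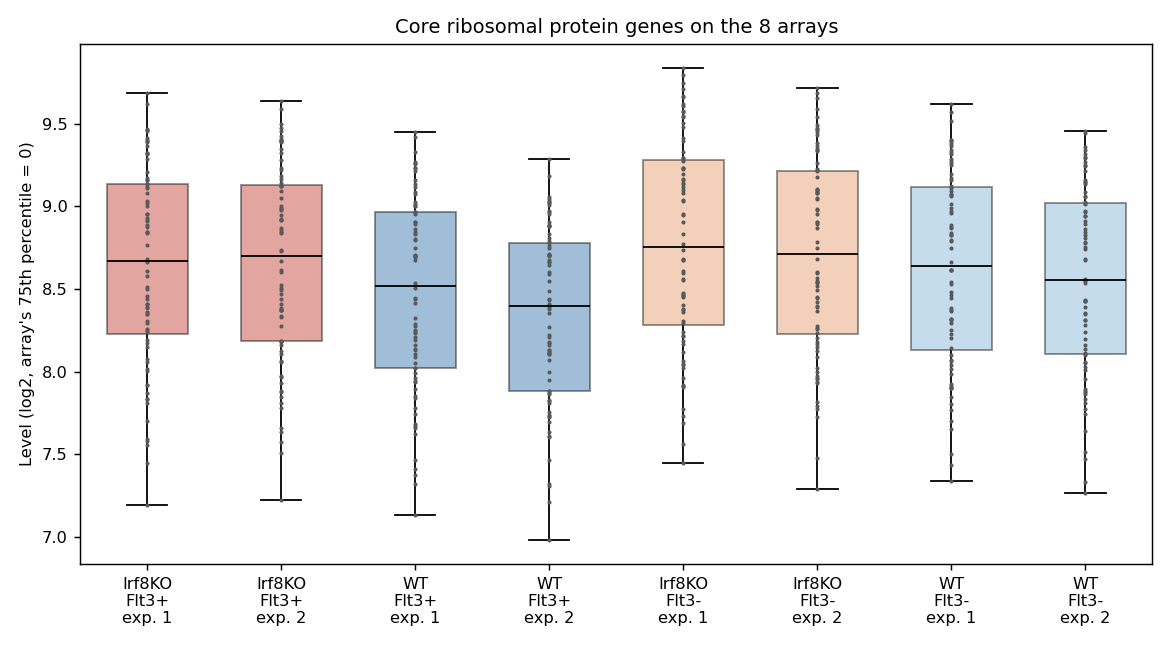
Levels of the 76 core ribosomal protein genes on the 8 arrays (log2, array's 75th percentile set to 0), with points for genes and boxes for the quartiles and median. The whiskers can stop short of outlying genes. The core median is lowest on the WT Flt3+ arrays (8.52 and 8.40) and highest on the Irf8KO Flt3- arrays (8.76 and 8.71).

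The direction of the core's shift depended on how the arrays were put on one scale. With the 75th percentile set to 0, the core median differed between Irf8KO and WT by 0.24 in Flt3+ and 0.16 in Flt3- cells, and between Flt3+ and Flt3- by -0.18 in WT and -0.10 in Irf8KO mice. With quantile normalization the same 4 medians were -0.0011, 0.0086, 0.03 and 0.02. With cyclic loess, which removes a shift that depends on brightness, they were 0.05, 0.16, 0.11 and -0.0035. The sign of the WT comparison thus turned under both of these methods, and quantile normalization left almost no shift in any comparison. That method gives every array the same distribution of signals. The core makes up a large part of its bright end, so a core median near 0 is partly set by the method. The 106 other genes as bright as the core had medians of 0.20, 0.09, -0.19 and -0.10 on the 75th percentile scale, near those of the core. All statements on the direction of the core below are for the 75th percentile scale.

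**Figure D2:**
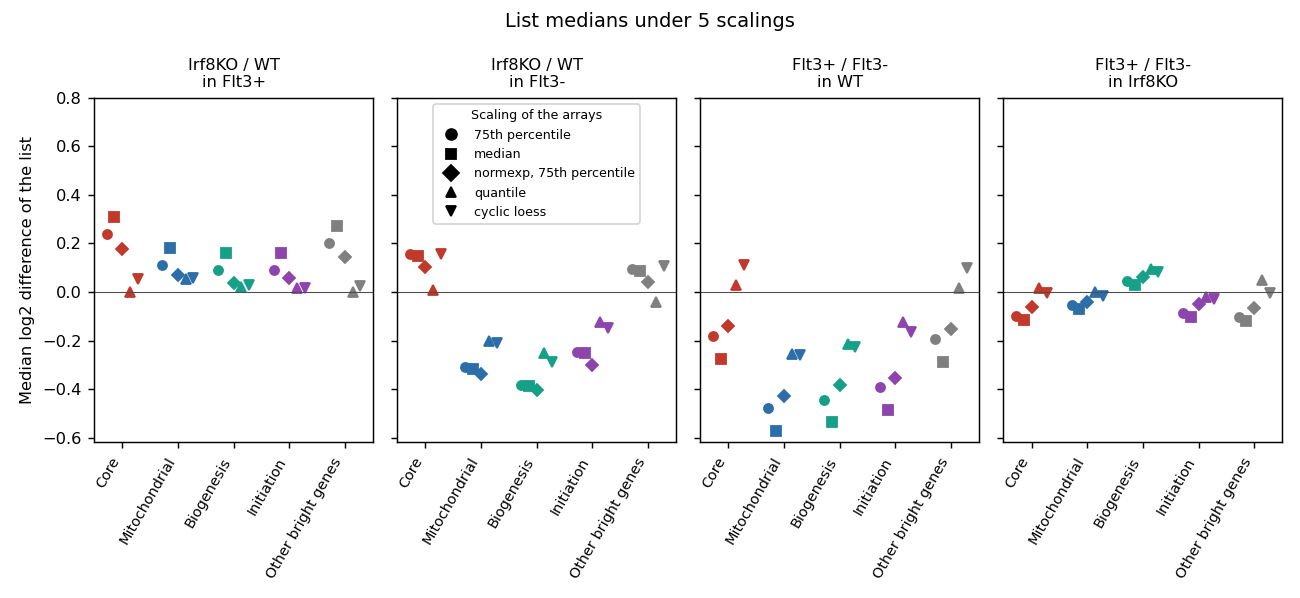
Median log2 difference of 5 gene lists (columns) in the 4 comparisons (panels) under 5 ways of scaling the arrays (symbols). The core and the other bright genes cross 0 with the scaling in WT Flt3+ against Flt3- cells, whereas the mitochondrial, biogenesis and initiation lists stay below 0 under all 5 there and in Irf8KO against WT Flt3- cells.

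In Flt3+ progenitors, 38 of 84 members were higher in Irf8KO than in WT cells and 0 were lower at limma's adjusted p under 0.05, a count that quantile normalization cut to 1. Of all 14105 genes tested, 29% were called in this comparison, 16.5% higher and 12.5% lower; 67 members had an unadjusted p under 0.05. Among the core genes 36 of 76 were higher, 26 of the large and 10 of the small subunit. Their differences were tightly spread, with a median of 0.24 (1.18-fold), an SD of 0.07 across genes and a range from -0.0073 (Rpl21) to 0.40 (Rps20). For 74 of 76 core genes both Irf8KO arrays lay above both WT arrays, which held for 39.1% of all genes in this direction. The p-values measure the spread between the 2 experiments of a group, which may be technical.

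The largest called core differences in Flt3+ cells were those of Rpl10, Rps12, Rps27a and Rpl13a. Rpl10, which joins the large subunit last and completes it, read 9.47 and 9.46 in Irf8KO Flt3+ cells, against 9.21 and 8.97 in WT Flt3+ cells. Its difference was 0.37 ± 0.10 (SE, limma adjusted p = 0.036). Rps12 rose by 0.37 ± 0.06 (limma adjusted p = 0.0085) and Rps27a, made as a fusion with ubiquitin, by 0.36 ± 0.06 (limma adjusted p = 0.010). Rpl13a rose by 0.33 ± 0.06 (limma adjusted p = 0.014). In all 4 genes the arrays of the 2 genotypes did not overlap, and their calls held under 8, 16, 17 and 14 of 19 alternatives, in the order named. None of the 4 was called relative to the core median (limma adjusted p between 0.18 and 0.32 after each array was set to its core median).

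Of all genes 16.5% were called higher in Irf8KO against WT Flt3+ cells, and of the core 47.4%. Of 9 listed genes mutated in Diamond-Blackfan anaemia, 5 were called higher there (55.6%), a share near that of the core. Among them Rps19, Rpl5, Rpl35a and Rps10 had 0.24, 0.17, 0.23 and 0.29 (limma adjusted p = 0.0080, 0.037, 0.015 and 0.048), calls that held under 16, 4, 13 and 9 of 19 alternatives. Rps10 turned to -0.09 with quantile normalization. Rps19, the gene most often affected in that disease, read 7.56 and 7.57 in Irf8KO Flt3+ against 7.32 and 7.32 in WT Flt3+ cells, with no overlap. The P stalk, the arm that recruits elongation factors, has 3 proteins. Rplp0 (0.33, limma adjusted p = 0.041) and Rplp1 (0.20, 0.036) were called higher, while Rplp2 had 0.26 (0.11) without a call. The call of Rplp0 held under 7 and that of Rplp1 under 6 of 19 alternatives, and Rplp1 turned to -0.04 with quantile normalization. Rpl5 and Rpl11, which with 5S rRNA can bind the p53 regulator Mdm2, differed by 0.17 (limma adjusted p = 0.037) and 0.22 (0.063). Rps6, the S6 kinase target, had 0.24 (limma adjusted p = 0.055), Rps3 had 0.23 (0.025), Rps14 had 0.30 (0.10) and Rpsa had 0.24 (0.18).

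In Flt3- progenitors 19 members were higher and 3 lower in Irf8KO than in WT cells, while 43.6% of all genes were called, 16.5% higher and 27.2% lower. All 18 core genes called were higher, 11 of the large and 7 of the small subunit, with a core median of 0.16 and an SD across genes of 0.08. The median of all genes was -0.03, so the core lay on the other side of 0 from most genes. Both Irf8KO arrays lay above both WT arrays for 67 of 76 core genes, against 32.4% of all genes. Rps19 read 7.73 and 7.78 in Irf8KO Flt3- cells against 7.50 and 7.47 in WT Flt3- cells, a rise of 0.27 ± 0.04 (SE, limma adjusted p = 0.0035). Rpl37a (0.33), Rps27 (0.28) and Rpl39 (0.28) had the other large rises among called core genes, with limma adjusted p of 0.035, 0.028 and 0.0045. Of the 9 Diamond-Blackfan genes Rps19 alone was called, although the differences of all 9 lay above 0. No gene of the P stalk or the 5S particle was called, but all of their differences were above 0 too. They were 0.28 (Rplp0), 0.13 (Rplp1), 0.24 (Rplp2), 0.06 (Rpl5) and 0.08 (Rpl11).

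Between the populations of WT mice, 38 members were lower and 2 higher in Flt3+ than in Flt3- cells, against 61.9% of all genes called, 39.2% lower and 22.6% higher. Of the core, 33 genes were lower and 1 was higher, with a median of -0.18 that became 0.03 with quantile normalization and 0.11 with cyclic loess. The median of all genes was -0.12. Both Flt3+ arrays lay below both Flt3- arrays in 57 of 76 core genes, against 49.9% of all genes. Rps2, an entry-channel protein of the small subunit, read 8.24 and 8.17 in WT Flt3+ against 8.62 and 8.55 in WT Flt3- cells and fell by 0.38 ± 0.05 on the log2 scale (SE, limma adjusted p = 0.00080). Of the 9 Diamond-Blackfan genes 4 were called lower on this scale, among them Rpl5 (-0.21), Rpl35a (-0.19) and Rps19 (-0.16), and these 3 turned to values above 0 with quantile normalization and cyclic loess.

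Between the populations labelled Irf8KO few members were called: 3 were lower and 1 higher in Flt3+ than in Flt3- cells, although 45.8% of all genes were called. The only core gene called was Rps19, which read 7.56 and 7.57 in Irf8KO Flt3+ against 7.73 and 7.78 in Irf8KO Flt3- cells (-0.19 ± 0.04, SE, limma adjusted p = 0.010). That call held under 13 of 19 alternatives, and the difference was -0.0064 with quantile normalization (limma adjusted p = 0.92). Both Flt3+ arrays lay below both Flt3- arrays for 60 of 76 core genes, against 41.7% of all genes. The core median was -0.10, as was that of the 106 other bright genes. A test of whether the genotype difference was unlike in the 2 populations called 6 members, 5 higher and 1 lower, against 30.9% of all genes, 21.4% higher and 9.45% lower. In the core it called Rps2 alone (0.27 ± 0.06, SE, limma adjusted p = 0.028). Rps2 differed by 0.24 between Irf8KO and WT Flt3+ cells and by -0.02 between Irf8KO and WT Flt3- cells.

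Single arrays decided the number of core genes called, and the falls in number are listed here. Without the first WT Flt3+ array the numbers rose instead. The core median was then 0.30 in Irf8KO against WT Flt3+ cells and -0.26 in WT Flt3+ against Flt3- cells. Without the second WT Flt3+ array these medians were 0.16 and -0.11. The 36 calls in Irf8KO against WT Flt3+ cells became 1 without the second and 8 without the first Irf8KO Flt3+ array, 14 without the second WT Flt3+ array and 23 without either WT Flt3- array. The 18 calls in Flt3- cells became 9 without either Irf8KO Flt3+ array, 2 and 6 without the first and the second Irf8KO Flt3- array, and 4 and 2 without the first and the second WT Flt3- array. The 34 calls between WT Flt3+ and Flt3- cells became 22 without either Irf8KO Flt3+ array, 15 without the second WT Flt3+ array, and 5 and 19 without the first and the second WT Flt3- array. The core moved together between experiments too. The first array exceeded the second in 28 of 76 core genes in Irf8KO Flt3+, 68 in WT Flt3+, 63 in Irf8KO Flt3- and 73 in WT Flt3- cells, with median gaps of -0.01, 0.13, 0.08 and 0.07. This was not shown to be particular to the core. The median level of the 106 other bright genes was 8.22 and 8.21 on the Irf8KO Flt3+ arrays and 8.01 and 7.91 on the WT Flt3+ arrays. It was 8.35 and 8.32 on the Irf8KO Flt3- arrays and 8.36 and 8.26 on the WT Flt3- arrays.

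To read departures from the block, each array was also set to its own core median, a scaling added after the shared shift had been seen. Relative to it, 0 core genes were called between Irf8KO and WT cells in either population and 0 between the Flt3 populations labelled Irf8KO (limma), with 1, 2 and 1 of 76 at an unadjusted p under 0.05. Between WT Flt3+ and Flt3- cells 2 were called, among them Rps2, which lay below the core (-0.24, limma adjusted p = 0.037). Of the 8 members outside the core, 2 were called in Irf8KO against WT Flt3+ cells, 5 in Irf8KO against WT Flt3- cells, 6 in WT Flt3+ against Flt3- cells and 1 in Irf8KO Flt3+ against Flt3- cells. The 8 include Rpl39l, which was above background on the WT Flt3- arrays alone. It passed the filter only through that group, so its lower readings elsewhere are not a test of a fall. The calls over all 84 members on that scale, 5 in Irf8KO against WT Flt3- cells and 8 between the WT populations, depended on single arrays. The 5 became 3 without either Irf8KO Flt3- array and 2 without the second WT Flt3- array. The 8 became 5 without either Irf8KO Flt3+ array, and 4 and 3 without the first and the second WT Flt3- array. On that scale 28.7%, 37.9%, 45.6% and 33.5% of all genes were called in the same order of comparisons. In the test of unlike genotype differences 0 members were called on that scale, with 4 at an unadjusted p under 0.05, against 9.03% of all genes. Setting the core median to 0 itself keeps core genes close to 0, so their low count is a description. The members outside the core, Rpl39l included, were called at shares from 12.5% to 75%, which are a description too.

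**Figure D3:**
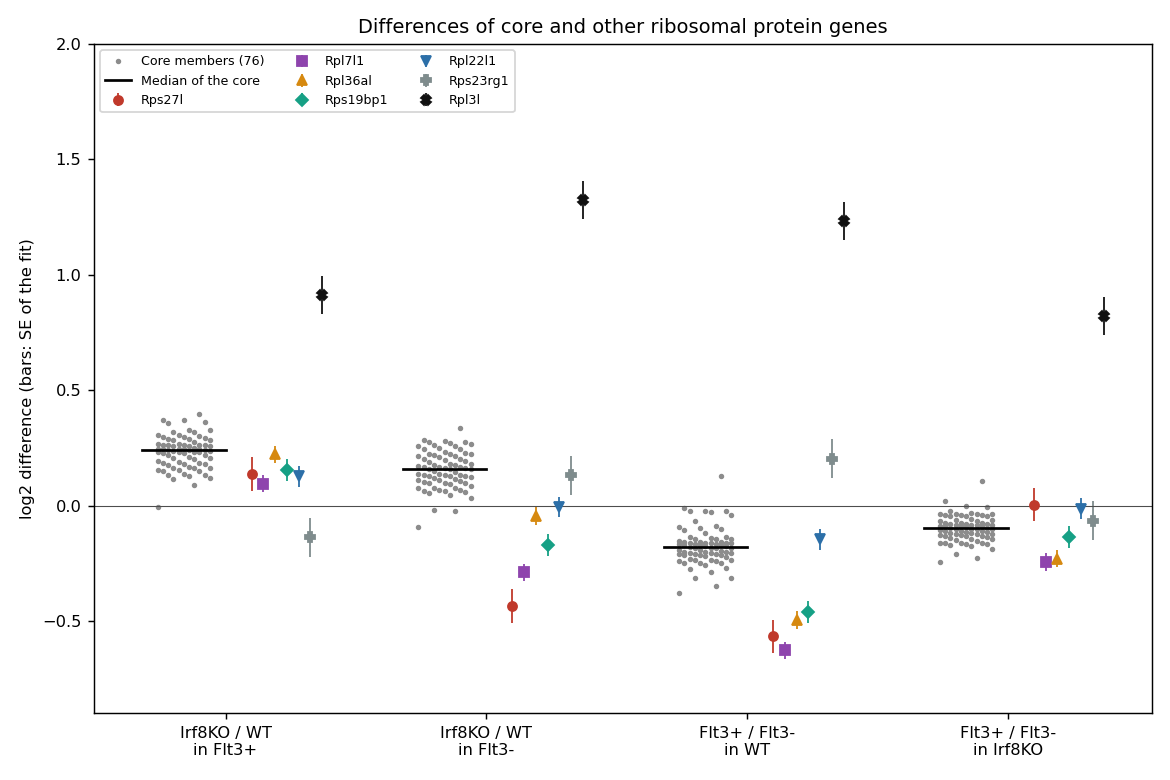
Log2 differences on the 75th percentile scale in the 4 comparisons for the 76 core genes (grey, with their median as a line) and for 7 members outside the core (coloured, with the SE of the fit). Rps27l, Rpl7l1, Rpl36al and Rps19bp1 leave the core band downwards in WT Flt3+ against Flt3- cells, and Rpl3l lies above it in all 4; Rpl39l, near background, is not drawn.

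Among the paralogues, Rps27l encodes a near copy of Rps27 and is known as a target gene of p53. It read 6.07 and 6.09 in Irf8KO Flt3+, 5.98 and 5.91 in WT Flt3+, 6.18 and 5.97 in Irf8KO Flt3-, and 6.52 and 6.50 in WT Flt3- cells. Both WT Flt3- arrays were above all others. It fell by 0.43 ± 0.07 on the log2 scale in Irf8KO against WT Flt3- cells (0.740-fold, SE, limma adjusted p = 0.0057) and by 0.57 ± 0.07 in WT Flt3+ against Flt3- cells (0.675-fold, limma adjusted p = 0.0011). It differed by 0.14 in Irf8KO against WT Flt3+ cells (limma adjusted p = 0.22) and by 0.0044 in Irf8KO Flt3+ against Flt3- cells (0.97). The genotype difference was unlike in the 2 populations by 0.57 ± 0.10 (limma adjusted p = 0.012). Its parent Rps27 went the other way in Irf8KO against WT Flt3- cells, with 9.10 and 8.99 against 8.79 and 8.74.

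Rpl7l1, a diverged relative of Rpl7, was also highest in WT Flt3- and lowest in WT Flt3+ cells. It read 0.28 and 0.28 in Irf8KO Flt3+, 0.17 and 0.20 in WT Flt3+, 0.52 and 0.53 in Irf8KO Flt3-, and 0.82 and 0.80 in WT Flt3- cells, with no overlap between groups. It fell by 0.29 ± 0.04 in Irf8KO against WT Flt3- cells (0.819-fold, SE, limma adjusted p = 0.0024), by 0.63 ± 0.04 in WT Flt3+ against Flt3- cells (0.648-fold, 5.2e-05) and by 0.24 ± 0.04 in Irf8KO Flt3+ against Flt3- cells (0.845-fold, 0.0033). Rpl7 had differences of 0.13, -0.17 and -0.09 in these comparisons, none of them called. The calls of Rps27l and Rpl7l1 in Irf8KO against WT Flt3- cells and in WT Flt3+ against Flt3- cells held under all 19 alternatives run.

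Rpl36al, the retrocopy of the X-linked gene Rpl36a, read 6.33 and 6.36 in Irf8KO Flt3+, 6.12 and 6.12 in WT Flt3+, 6.57 and 6.58 in Irf8KO Flt3-, and 6.64 and 6.60 in WT Flt3- cells. It fell in Flt3+ against Flt3- cells of both genotypes, with a difference of -0.50 ± 0.04 in WT (SE, limma adjusted p = 0.00014) and -0.23 ± 0.04 in Irf8KO mice (0.0043). The difference in Irf8KO mice was -0.03 with quantile normalization (limma adjusted p = 0.43). It rose by 0.22 in Irf8KO against WT Flt3+ cells (limma adjusted p = 0.0099). Rpl36a differed by -0.04 between the populations of either genotype, without a call. The 2 copies thus had unlike values between populations, although cross-hybridization between such near copies was not tested.

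Rps19bp1, whose product binds Rps19 and is known as a regulator of the deacetylase Sirt1, read 2.74 and 2.78 in Irf8KO Flt3+, 2.56 and 2.65 in WT Flt3+, 2.88 and 2.91 in Irf8KO Flt3-, and 3.06 and 3.08 in WT Flt3- cells. It fell by 0.46 ± 0.05 in WT Flt3+ against Flt3- cells (0.726-fold, SE, limma adjusted p = 0.00042). It fell by 0.17 ± 0.05 in Irf8KO against WT Flt3- cells (limma adjusted p = 0.031), a call that held under 8 of 19 alternatives. Rps19 was higher, not lower, in Irf8KO Flt3- cells. Rpl22l1, the paralogue of the T cell factor Rpl22, read 6.81 and 6.79 in Irf8KO Flt3+, 6.66 and 6.67 in WT Flt3+, 6.85 and 6.77 in Irf8KO Flt3-, and 6.81 and 6.82 in WT Flt3- cells. Its one call, -0.15 in WT Flt3+ against Flt3- cells (limma adjusted p = 0.030), turned to 0.24 with quantile normalization and 0.12 with cyclic loess. Rps23rg1, a retrogene of Rps23, had differences between -0.14 and 0.20, none of them called on the 75th percentile scale. After each array was set to its core median, limma called it higher in WT Flt3+ than in Flt3- cells.

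**Figure D4:**
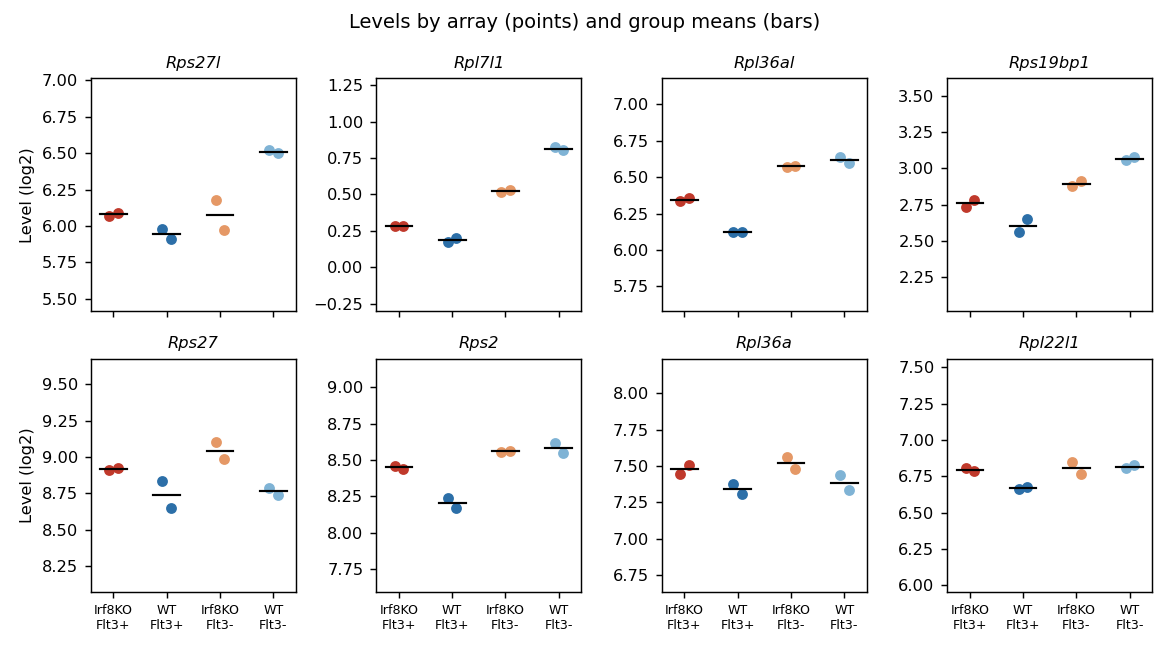
Levels (log2, 75th percentile set to 0) by array, with bars for group means, of 5 members outside the core (Rps27l, Rpl7l1, Rpl36al, Rps19bp1 and Rpl22l1) and 3 core genes (Rps27, Rps2 and Rpl36a); every panel spans the same height. Rps27l is highest on both WT Flt3- arrays (6.52 and 6.50), and Rps27 is highest on both Irf8KO Flt3- arrays (9.10 and 8.99).

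Rpl3l, which replaces Rpl3 in skeletal and heart muscle, lies close to background. It read -2.73 and -2.59 in Irf8KO Flt3+, -3.65 and -3.49 in WT Flt3+, -3.42 and -3.54 in Irf8KO Flt3-, and -4.77 and -4.84 in WT Flt3- cells, and 1 of the 2 WT Flt3- arrays did not measure it above background. It rose by 0.91 ± 0.08 in Irf8KO against WT Flt3+ cells and by 1.32 ± 0.08 in Irf8KO against WT Flt3- cells (SE, limma adjusted p = 0.00092 and 0.00028). It also rose in Flt3+ against Flt3- cells, by 1.23 in WT and 0.82 in Irf8KO mice (limma adjusted p = 7.1e-05 and 0.00050). With normexp background correction the 2 genotype rises were 0.57 and 0.46 (limma adjusted p = 0.00057 and 0.0013), and those between populations were 0.06 (0.51) and 0.17 (0.091). Rpl39l, the male germ cell paralogue of Rpl39, was above background on the WT Flt3- arrays alone, at -4.34 and -3.85. It entered the test through that group alone, so a lower reading in the other groups is not a test of a fall. The bounds were 1.76-fold lower in Irf8KO than in WT Flt3- cells and 2-fold lower in WT Flt3+ than in Flt3- cells. Neither difference was called (limma adjusted p = 0.062 and 0.13). These bounds set the level below background to the lowest signal that any probe well above background had on that array.

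One probe of Rps24 showed a far larger difference than any core gene's main probe. Rps24, a small subunit protein, is mutated in Diamond-Blackfan anaemia, and its mRNA is alternatively spliced near the 3′ end. The array carries 3 probes for it, made for NM_011297, NM_207634 and NM_207635, and the main values above are from the brightest, that of NM_207635. The probe of NM_011297 read 8.31 and 8.36 in Irf8KO Flt3+, 8.85 and 8.72 in WT Flt3+, 6.77 and 6.77 in Irf8KO Flt3-, and 6.85 and 6.86 in WT Flt3- cells. Flt3+ arrays of both genotypes were far above Flt3- arrays, with no overlap.

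Fitted over all 32663 probes, the NM_011297 probe of Rps24 was 3.80-fold higher in Flt3+ than in Flt3- cells of WT mice (log2 1.93 ± 0.06, SE, limma adjusted p = 1.4e-05). In Irf8KO mice it was 2.96-fold higher (1.56 ± 0.06, limma adjusted p = 3.1e-05). In the fit of all probes 47.4% and 33.1% were called in these comparisons. It fell to 0.734-fold in Irf8KO against WT Flt3+ cells (-0.45 ± 0.06, limma adjusted p = 0.0072; 17% of probes called), and had -0.08 in Irf8KO against WT Flt3- cells (0.33; 32.1% of probes called). Its genotype difference was unlike in the 2 populations by -0.36 (limma adjusted p = 0.037; 18.1% of probes called), a call that held under 5 of 14 alternatives. The fall missed the threshold without the first Irf8KO Flt3+ array (limma adjusted p = 0.053). The probe of NM_207634 had 7.93 and 7.99 in Irf8KO Flt3+, 7.77 and 7.67 in WT Flt3+, 8.17 and 8.06 in Irf8KO Flt3-, and 7.86 and 7.79 in WT Flt3- cells. Its differences between populations were -0.10 in WT and -0.15 in Irf8KO mice, and those of the NM_207635 probe were -0.19 and -0.13, none of them called. The rise of the NM_011297 probe between populations was called under all 14 alternatives run for it, from 1.83 to 2.31 in WT and from 1.54 to 1.66 in Irf8KO mice. These 3 probes were singled out after their values were seen, and their sequences were not used here.

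**Figure D5:**
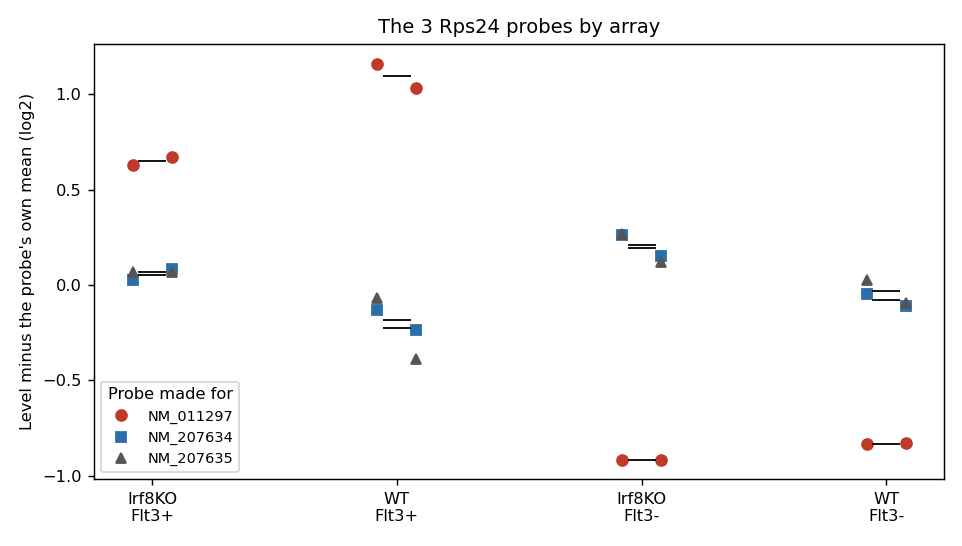
Levels of the 3 Rps24 probes by array, each minus its own mean over the 8 arrays (log2), with bars for group means. The NM_011297 probe lies above its mean on all Flt3+ arrays and below it on all Flt3- arrays, and the other 2 probes stay closer to their means.

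Of 51 members with several tested probes, Rps24 included, the probes of 0 were called in opposite directions in Irf8KO against WT Flt3+ cells or between the Irf8KO populations, against 2, among them Rpl30, in Irf8KO against WT Flt3- cells and 1 (Rpl15) between the WT populations. The median gap between the probes of a gene was 0.06 to 0.10. Rpl22, a core protein needed for T cell development, has a second probe with a mean level of 4.30, which rose by 0.55 in WT Flt3+ against Flt3- cells and by 0.35 in those labelled Irf8KO. The brighter probe of Rpl22 had -0.17 and -0.0064. Both are made for the same transcript, NM_009079. Where they bind was not checked, and the cause of their gap was not tested.

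Genes that build ribosomes and those of the mitochondrial ribosome had values unlike those of the core. In Irf8KO against WT Flt3- cells 64 of 77 mitochondrial ribosomal protein genes fell and 0 rose, with a median of -0.31, while 27.2% of all genes fell and the core median was 0.16. Mrpl16 (-0.78), Mrpl41 (-0.62) and Mrpl12 (-0.55) fell most. Of 53 ribosome biogenesis genes 44 fell and 1 rose, with a median of -0.38. Rrp12 (-0.76) and Rrp1b (-0.74), which process pre-rRNA, and Nolc1 (-0.66), a nucleolar chaperone, fell most, and Noc3l rose (0.31). Of 37 translation initiation factors 24 fell, led by Eif2s1 (-0.53), the alpha subunit of eIF2, and 1 rose, the helicase Eif4a2 (0.35). Under quantile normalization 49, 38 and 18 genes of these lists fell, with medians of -0.20, -0.25 and -0.12, and the core median was 0.0086.

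Between the WT populations the core and these lists were both lower on the 75th percentile scale, though the core's sign turned with quantile normalization and cyclic loess. On that scale 39.2% of all genes were lower. Of the mitochondrial list 72 genes were lower and 1, Mrpl52, higher in Flt3+ than in Flt3- cells, with a median of -0.48 against -0.18 for the core. Mrpl51 (-0.92) and Mrpl20 (-0.81) fell most. All 48 biogenesis genes called were lower (median -0.44), among them Ltv1 (-0.82) and Bysl (-0.80), which mature the small subunit. Initiation factors were lower in 33 of 37 cases (median -0.39). With cyclic loess the core median turned to 0.11 while the 3 lists stayed at -0.26, -0.23 and -0.16. In Irf8KO against WT Flt3+ cells 19.5% of the mitochondrial and 18.9% of the biogenesis genes were called, below the 29% of all genes, with medians of 0.11 and 0.09.

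In the test of unlike genotype differences, 67 of 77 mitochondrial and 44 of 53 biogenesis genes were called, all positive, against 1 of 76 core genes and 30.9% of all genes. The medians were 0.43 and 0.45, against 0.08 for the core and 0.07 for all genes. The mitochondrial count was 42 without the second Irf8KO Flt3+ array and 40 without either WT Flt3- array, and the biogenesis count was 29 without the first WT Flt3- array. The lists were not compared with the core by a test. Of 21 elongation factors and other genes with TOP mRNAs, 12 fell in Irf8KO against WT Flt3- cells, such as Eif5a (-0.36) and Ipo5 (-0.64), while Tpt1 (0.26) and Eef1b2 (0.17) rose. These 14 calls, 66.7% of the list against 43.6% of all genes, became 9 without either Irf8KO Flt3+ array, 6 without the first Irf8KO Flt3- array, and 5 and 3 without the first and the second WT Flt3- array. Of the ribosomal genes that the naming rule leaves out, Fau rose in Irf8KO against WT cells of both populations (0.30 in Flt3+ and 0.28 in Flt3-, limma adjusted p = 0.011 and 0.0092). Rack1 was not called in any comparison.

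Regulators of TOP mRNAs were called about as often as all genes in both genotype comparisons. Of 27 genes 4 rose and 5 fell in Irf8KO against WT Flt3+ cells (33.3%, against 29% of all genes), and 6 rose and 6 fell in Flt3- cells (44.4%, against 43.6%). The 9 calls became 3 and 4 without the first and the second Irf8KO Flt3+ array, and 4 without the first WT Flt3+ or either WT Flt3- array, and the 12 became 7 without the second WT Flt3- array. Mycn, a Myc family factor that drives ribosomal genes, rose by 2.16 in WT Flt3+ against Flt3- cells and by 1.22 in Irf8KO mice. Ddit4, an inhibitor of mTORC1, rose by 1.53 between the WT populations, and Deptor, another, fell by 1.37 there and by 0.93 in Irf8KO mice. Ddit4 (0.48), Mycn (0.50) and Pdcd4 (0.45) rose in Irf8KO against WT Flt3- cells, and Deptor (-0.62), Zfp36l1 (-0.47) and Larp1 (-0.37) fell. In Irf8KO against WT Flt3+ cells Myc rose (0.52) and Ddit4 (-0.60) and Mycn (-0.43) fell.

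Markers of other cells differed between the groups, and in bulk RNA fewer cells of a type and less RNA per cell cannot be told apart. The summed signal of 8 erythroid markers, in units of the 75th percentile, was 1.97 to 2.00 on Irf8KO Flt3+ arrays against 47.1 to 47.2 on WT Flt3+ arrays. It was 2.17 to 2.20 on Irf8KO Flt3- arrays against 20.6 to 21.0 on WT Flt3- arrays. All 8 were called lower in both comparisons of genotype. Of all genes, 12.5% were called lower and 16.5% higher in Irf8KO against WT Flt3+ cells, and 27.2% lower and 16.5% higher in Flt3- cells. The 8 eosinophil, basophil and mast cell markers summed to 64.0 to 64.3 on Irf8KO Flt3- arrays against 136 on WT Flt3- arrays, and to 5.26 to 5.51 on Irf8KO Flt3+ arrays against 11.1 to 11.8 on WT Flt3+ arrays. Of these 8, 7 were called lower and 0 higher in Irf8KO against WT Flt3- cells, and 4 lower and 1 higher in Flt3+ cells. The 4 lymphoid progenitor markers summed to 231 to 252 on Irf8KO Flt3+, 115 to 123 on WT Flt3+, and 0.753 to 1.18 on all Flt3- arrays. Granulocyte progenitor markers summed to 1378 to 1388 on Irf8KO Flt3+ arrays against 844 to 947 on WT Flt3+ arrays, and to 2720 to 2973 on Irf8KO Flt3- arrays against 2357 to 2495 on WT Flt3- arrays. Of these 9, 7 were called higher and 1 lower in Irf8KO against WT Flt3+ cells, and 4 higher and 2 lower in Flt3- cells. Cebpe was called lower in both (-0.32 and -0.47). The 6 monocyte and macrophage markers summed to 128 to 132 on Irf8KO Flt3+ arrays against 73.5 to 76.2 on WT Flt3+ arrays, and to 144 to 145 on Irf8KO Flt3- arrays against 71.2 to 71.5 on WT Flt3- arrays. In each genotype comparison 5 of the 6 were called higher. The other, Ly86, was called lower (-8.46 in Flt3+ and -8.08 in Flt3- cells), which the sum does not show. The 5 megakaryocyte markers summed to 4.03 to 4.35 on Irf8KO Flt3+ arrays against 12.9 to 13.7 on WT Flt3+ arrays, and to 4.67 to 4.74 on Irf8KO Flt3- arrays against 7.39 to 7.46 on WT Flt3- arrays. Of 22 immediate early and stress genes tested, 5 were called higher and 11 lower in Irf8KO against WT Flt3+ cells (median -0.22). In Irf8KO against WT Flt3- cells 17 were called higher and 3 lower (0.50), and in WT Flt3+ against Flt3- cells 18 higher and 3 lower (1.37). Of all genes 29%, 43.6% and 61.9% were called in these comparisons, in the same order. Between the WT populations 22.6% of all genes were higher and 39.2% lower. The part of these cells and genes in the ribosomal protein values was not tested.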

How the data were processed

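Per the file headers, each array was read with Agilent Feature Extraction 10.7.3.1 (protocol GE1_107_Sep09, one colour), and the deposited intensity values used were the processed signal, a linear brightness with the software's own background correction. The deposited series table holds intensity values of the same arrays with one factor per array, judged from the values, and served as an alternative. The genome build behind the probes was not given in the sources used here.

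From these, log2 of the processed signal minus each array's 75th percentile was computed, control and outlier spots were left out, and spots of a probe were averaged. Probes were named through their RefSeq accession (26762 of 55681 probes), and the brightest probe stood for a gene. Genes entered the test where some group had its 2 arrays both well above background (14105 genes). limma 3.58.1 in R 4.3.3 was fitted over the 4 groups of 2 arrays, with Benjamini-Hochberg adjustment over all genes tested and a threshold of 0.05. The script was tested on simulated data. The number of arrays limits the precision. Windows and figures were made with Python 3.11.15.

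Genes were named by rule: the 5 called members with the largest difference in each direction, members with a fixed role or paralogue, up to 3 called genes in each direction from each related list, and the 5 members with the smallest p in the test of unlike differences. The members and lists were chosen with earlier results of these data known. Alternatives covered the scaling, the background correction, the filter, the choice of probe, the arrays in the fit and the experiment number as a block. Normexp used the median signal of a spot and of its background with an offset of 50. A few genes that this rule or these lists take are not reported here by name.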

Additional observations from a re-analysis of the deposited data

Results flagged for a closer look

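For 6 members the genotype difference was unlike in the 2 populations by limma's test of that difference (Irf8KO minus WT in Flt3+ cells, less the same in Flt3- cells). Rps27l had 0.57, Rpl7l1 had 0.38, Rps19bp1 had 0.33, Rpl36al had 0.27 and Rps2 had 0.27, while Rpl3l had -0.41. Of the alternatives run, the call of Rpl7l1 held in 18 of 18, that of Rps27l in 17 of 18, that of Rps19bp1 in 13 of 18, that of Rpl36al in 12 of 18, that of Rps2 in 7 of 18 and that of Rpl3l in 3 of 17. After each array was set to its core median, none of these 6 passed the threshold (limma adjusted p = 0.053 for Rps27l, 0.17 for Rpl7l1, 0.30 for Rps19bp1, 0.36 for Rpl36al, 0.33 for Rps2 and 0.087 for Rpl3l), with 4 members at an unadjusted p under 0.05. What sets these 6 apart was not tested.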

How the results depend on the processing

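Scaling and the arrays kept decided most counts of members called, and the cause was not tested. In Irf8KO against WT Flt3+ cells the 38 calls became 1 with quantile normalization, 3 with cyclic loess, 18 with no filter and 11 with only the groups compared, and the median of 0.23 became 0.0004, 0.0531 and, with median scaling, 0.31. In Irf8KO against WT Flt3- cells the 22 calls became 8 (quantile), 47 (cyclic loess), 7 (median scaling), 12 (normexp) and 5 (no filter), and the median of 0.15 became 0.0086 (quantile). In WT Flt3+ against Flt3- cells the 40 calls became 16 (quantile), 22 (no filter), 65 (every probe) and 19 (only the groups compared), and the median of -0.18 became 0.0275 (quantile), 0.11 (cyclic loess) and -0.28 (median scaling). In Irf8KO Flt3+ against Flt3- cells the 4 calls became 2 (normexp), 13 (every probe), 8 (mean of probes) and 7 (replicate block), and the median of -0.10 became 0.0142 (quantile) and -0.0049 (cyclic loess). For the unlike differences the 6 calls became 3 (quantile), 14 (every probe) and 13 (mean of probes), and the median of 0.08 became -0.01, -0.11 and 0.16 (quantile, cyclic loess, median scaling). Leaving out one array at a time gave 2 to 52, 5 to 31, 10 to 56, 3 to 9 and 2 to 8 calls in the same order of comparisons, and medians of 0.16 to 0.29, 0.11 to 0.19, -0.26 to -0.12, -0.12 to -0.06 and 0.0164 to 0.15. The share of all calls that were higher was 36.6% between the WT populations, against 50.5% (quantile) and 52.5% (cyclic loess), 69.4% in the unlike differences, against 51.4% and 49.1%, 37.7% in Irf8KO against WT Flt3- cells, against 48.1% with cyclic loess, and 56.8% in Irf8KO against WT Flt3+ cells, against 46.2% with cyclic loess and 67.6% with median scaling.

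The named genes below turned sign and were called on the 75th percentile scale or under the alternative; others, called under neither, also crossed 0. In Irf8KO against WT Flt3+ cells Rpl3 had -0.047 (quantile) and -0.0083 (cyclic loess), Rplp1 -0.041 and Rps10 -0.091 (quantile). In WT Flt3+ against Flt3- cells the mean of probes gave Rpl22 0.19 and Rps24 0.54. There quantile normalization gave Rpl22 0.0397, Rpl22l1 0.24, Rpl3 0.0235, Rpl35a 0.0081, Rpl36a 0.24, Rpl39 0.0627, Rpl5 0.0391, Rplp1 0.0581, Rps19 0.11, Rps27 0.19, Rps3 0.0273 and Rps7 0.12. Cyclic loess gave Rpl22 0.11, Rpl22l1 0.12, Rpl3 0.13, Rpl35a 0.0943, Rpl36a 0.24, Rpl39 0.15, Rpl5 0.0759, Rplp1 0.14, Rps19 0.12, Rps26 0.15, Rps27 0.27, Rps3 0.11, Rps4x 0.20, Rps7 0.19 and the NM_207634 probe of Rps24 (A_55_P1993880) 0.18. In Irf8KO Flt3+ against Flt3- cells the mean of probes gave Rpl22 0.17 and Rps24 0.43, and quantile normalization gave Rpl22l1 0.19 and Rpl36a 0.16. Rpl3l had 0.11 in the unlike differences with normexp.

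The experiment numbers were not taken to pair the arrays: deviations of same-numbered arrays correlated at -0.03 to 0.12 over the 6 pairs of groups, and the labels do not settle it. With the replicate block the core genes called were 47, 22, 44, 3 and 1, against 36, 18, 34, 1 and 1 without it. The scaling to the core median and the fits of single probes and related lists were chosen after seeing the data.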
